A study of Mus musculus with 18 samples.

Results

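Interferon-stimulated and interferon-signalling genes were followed in cultured mouse neural stem cells (NSCs) and in the astrocytes made from them. The 49 genes were taken by name from a list of receptors, factors and induced genes of the interferon pathway, out of 27997 genes in the table, and all 49 were found. The listing did not use their measured values, although results of these data were known when it was made.

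RNA was sequenced from adherent cultures of 3 lines. The tdTomato line (genotype DNGR-1 +/- Tom+/-) and the EYFP line (DNGR-1 +/- EYFP+/-) came from mouse spinal cord, where Cre made from the gene for DNGR-1 (Clec9a), a receptor of dendritic cells, had switched on a reporter at the Rosa locus. These cells were sorted from neurospheres by their reporter and are called traced here. The hippocampal line, labelled DNGR-1+/+, came from mice with GlastCre, a floxed Huwe1 allele and an EYFP reporter at Rosa. NSCs were grown for 4 days with bFGF and EGF, each at 20 ng/ml, heparin at 5 ug/ml and laminin at 2 ug/ml. Astrocytes were made with BMP4 at 20 ng/ml in place of the mitogens, with new medium after 3 days, and were collected after 6 days. No culture was labelled as given an interferon. Each of the 6 groups held 3 libraries, from passages 10 to 12 of the same line, so p-values here measure the spread between cultures of 1 line and not between mice. Tissue of origin, genotype, Cre driver and reporter cannot be told apart in a difference between lines, and BMP4, the loss of mitogens and the added days cannot be told apart in a difference between fates.

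Type I interferons bind the receptor made of IFNAR1 and IFNAR2, and interferon gamma binds the receptor made of IFNGR1 and IFNGR2. The type I receptor activates STAT2, which joins IRF9 in a complex that binds a DNA element called the ISRE. Signals of the gamma receptor act mainly through another element, the GAS. The genes switched on in this way encode sensors of foreign nucleic acid, enzymes that stop translation or degrade RNA, proteins that hold virus at membranes, and feedback inhibitors. Astrocytes are known to respond to interferons.

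The ISRE core was searched as the letters GAAA, any 2 bases and again GAAA, on both strands, in windows from 250 bases before to 50 bases after each RefSeq start on GRCm38.p6. Of the 49 genes, 39 had a window, and 17 of these (43.6%) held the ISRE letters, compared with 3.99% of 27025 genes with a window and 3.44% of all 32851 windows. The GAS core, TTCNNNGAA, which reads the same on both strands, was found in 13 of the 39 genes (33.3%), compared with 9.55% of genes and 8.30% of windows. A match shows only that the letters are there. The 17 genes with the ISRE letters were Stat2, Ifih1, Ddx58, Oas1a, Oas3, Eif2ak2, Ifit1, Ifit3, Bst2, Ifitm2, Ifitm3, Rsad2, Irgm1, Igtp, Gbp3, Gbp7 and Isg15. The 160 bases before the RefSeq start are shown for 4 genes, for Ifit1, Ifit3 and Isg15 as genes far higher in hippocampal astrocytes than elsewhere and for Gbp3 since it moved in opposite directions in traced and hippocampal lines. Each is written 5′ to 3′ on the strand of its gene, and capitals mark the ISRE letters, which are on the other strand in Ifit1, Ifit3 and Gbp3. The stretch of Ifit1 is at chr19:34640729-34640888 on the plus strand, that of Ifit3 at chr19:34583369-34583528 on the plus strand, that of Isg15 at chr4:156200819-156200978 on the minus strand and that of Gbp3 at chr3:142559884-142560043 on the plus strand. In the GENCODE M21 annotation, the last 18 bases of the Ifit1 and Gbp3 stretches lie inside the gene.
Ifit1: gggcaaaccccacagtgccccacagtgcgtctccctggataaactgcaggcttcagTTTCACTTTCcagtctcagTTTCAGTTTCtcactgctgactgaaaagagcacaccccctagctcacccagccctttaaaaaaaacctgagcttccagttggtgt
Ifit3: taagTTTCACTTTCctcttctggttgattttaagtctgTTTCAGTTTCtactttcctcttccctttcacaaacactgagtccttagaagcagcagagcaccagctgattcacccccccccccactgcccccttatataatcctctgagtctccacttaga
Isg15: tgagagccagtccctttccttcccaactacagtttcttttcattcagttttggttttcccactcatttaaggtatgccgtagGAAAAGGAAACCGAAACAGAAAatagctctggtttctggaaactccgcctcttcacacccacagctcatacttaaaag
Gbp3: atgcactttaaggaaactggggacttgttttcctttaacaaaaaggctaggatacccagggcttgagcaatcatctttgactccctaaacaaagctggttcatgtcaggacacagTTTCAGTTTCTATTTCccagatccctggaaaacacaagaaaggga
Ifit1 and Ifit3 held 2 matches each, Gbp3 held 2 that overlap and Isg15 held 3 that overlap.

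**Figure D1:**
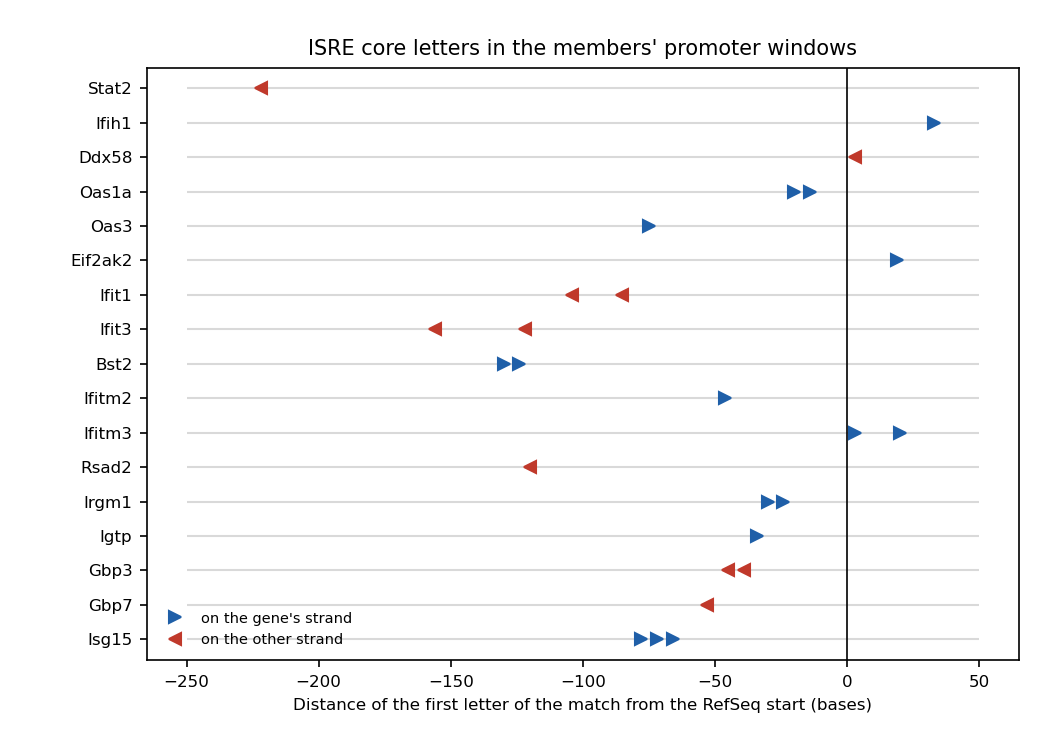
Position of the ISRE letters in the 17 genes with a match, as the distance in bases from the RefSeq start (x axis), with a mark for each match that shows its strand. Matches run from -222 in Stat2 to 33 in Ifih1, and Isg15 has 3.

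Values are the log2 values deposited by the authors, adjusted for library but not for gene length, so levels are compared between libraries and never between genes. They have the form of a regularized log, which pulls weakly expressed genes toward their mean, so changes of weak genes are understated and no single value marks an absence of reads. A difference of 1 is a 2-fold change, and the number of reads behind a value is unknown. A gene was tested if its value was at least 3.32 (10 before the log) in 3 or more of the 18 libraries, which left 15448 genes. Of the 49 interferon genes 43 were tested, and 38 would have been without the hippocampal astrocytes. Oas2, Oasl1, Bst2, Mx1 and Isg15 passed only through those astrocytes and so had to differ. Zbp1, Oas1a, Oas3, Ifitm1, Ifi47 and Sp100 were not tested. As a check of the labels, all 6 astrocyte markers were higher in astrocytes than in NSCs in each line, and Mki67, a marker of cycling cells, was between 12.75 and 13.07 in NSCs and between 6.42 and 7.15 in astrocytes. Nes, a stem cell marker, was between 13.43 and 13.80 in hippocampal astrocytes, between 10.74 and 11.19 in traced astrocytes and between 13.75 and 14.39 in NSCs.

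Most of these genes were higher in hippocampal astrocytes than in their NSCs, and a smaller set was higher in traced astrocytes. In the hippocampal line 40 of the 49 genes (81.6%) rose and 1 fell, where 39.0% of all genes tested were higher and 37.3% lower (limma, Benjamini-Hochberg adjusted p under 0.05). Here and below, shares of the 49 count the 6 genes not tested as not called. In the tdTomato line 28 (57.1%) rose and 6 fell, against 39.9% and 38.5% of all genes tested. In the EYFP line 25 (51.0%) rose and 6 fell, against 38.2% and 37.0%. The median change was 2.19 for hippocampal, 0.84 for tdTomato and 0.49 for EYFP cells, and the medians of all genes tested were 0.017, 0.015 and 0.014. Of the 38 genes that did not need the hippocampal astrocytes to be tested, 35 (92.1%) rose in the hippocampal line. In the tdTomato and EYFP lines 27 (71.1%) and 24 (63.2%) of them rose. In the order hippocampal, tdTomato and EYFP, 1, 5 and 6 of them fell, and their median changes were 2.12, 0.90 and 0.65. In the hippocampal line 32 genes rose by at least 1, compared with 17 in the tdTomato and 13 in the EYFP line, where 15.4%, 15.4% and 14.0% of all genes tested did, and among those 38 genes the counts were 27, 16 and 12. The same 22 genes rose in all 3 lines, where 28.1% of all genes tested did, among them Ifit1, Ifit3, Stat2, Irf9, Ifih1, Igtp, Xaf1 and Ifi27. Of those 38 genes 21 rose in all 3 lines. The gene that fell in the hippocampal line was Ifnar1, and the count was 0 without hippocampal astrocyte replicate 3. In a bulk sample, more cells with a transcript and more transcript per cell cannot be told apart.

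**Figure D2:**
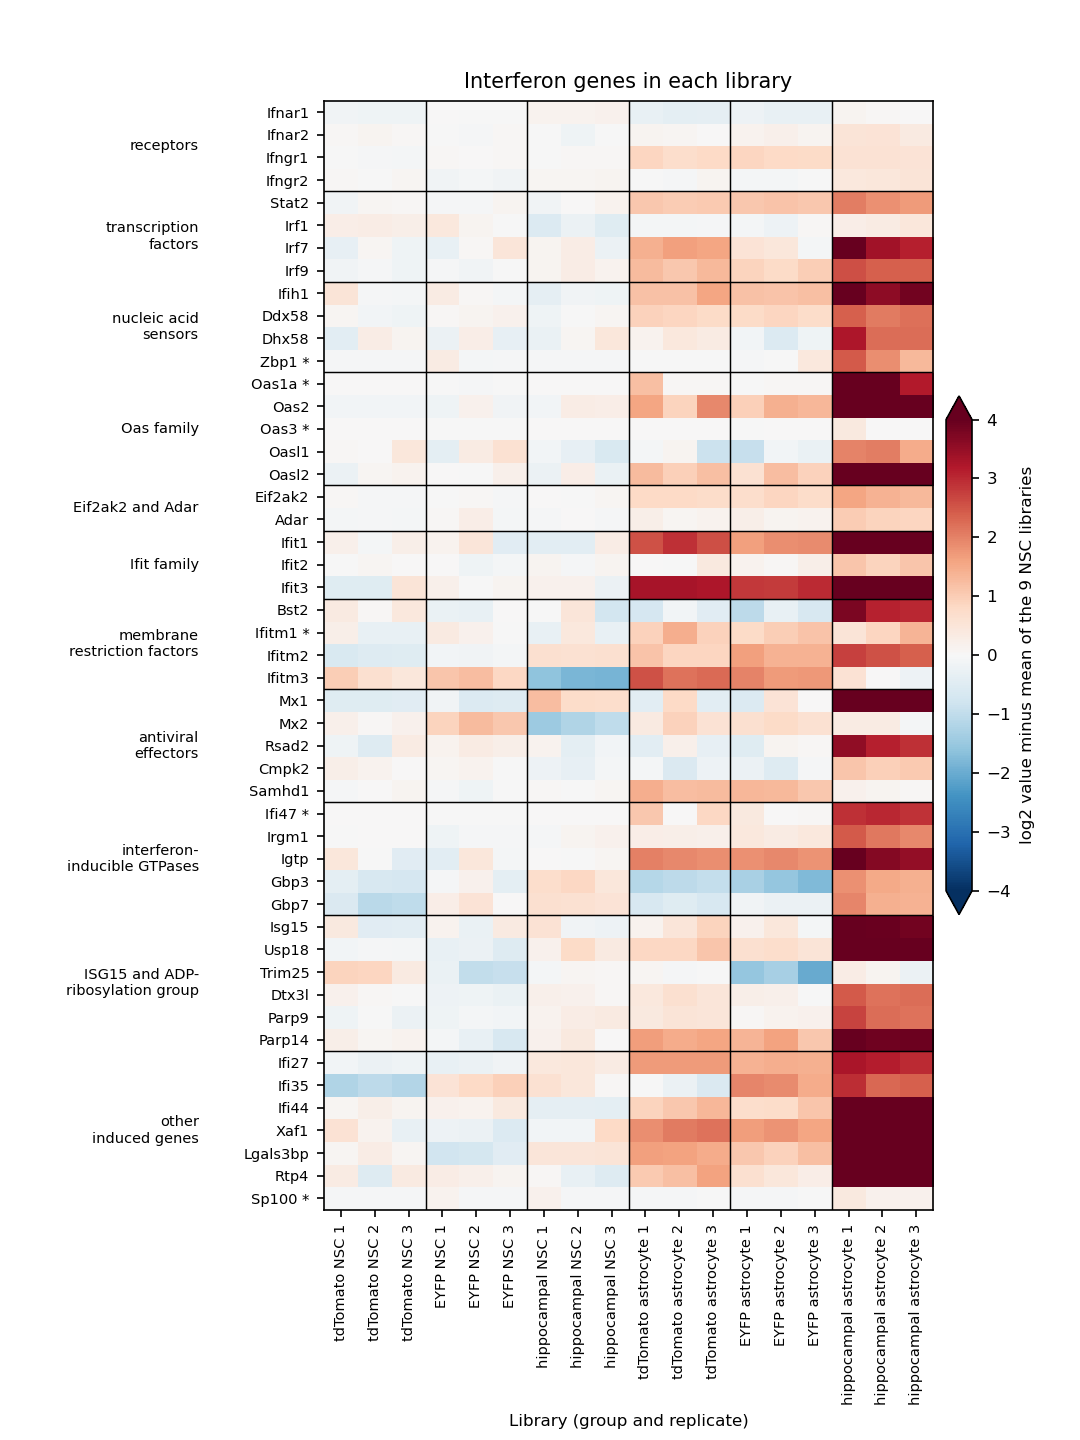
Log2 value of each of the 49 genes (rows, by role) in each of the 18 libraries (columns, by group and replicate), minus the mean of the 9 NSC libraries, on a colour scale, with stars at the 6 genes not tested. The 3 hippocampal astrocyte libraries are above all other 15 libraries in 40 of the rows.

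The difference between lines was tested directly, as the traced change minus the hippocampal change. It was negative for 41 of the 49 genes (83.7%) and positive for 2, Samhd1 and Ifngr1, where 25.9% of all genes tested were negative and 20.3% positive. Among the 38 genes that did not need the hippocampal astrocytes to be tested it was negative for 36 and positive for 2. The size was at least 1 in 30 of the 41, where 6.31% of all genes tested were negative by that much, and the median was -1.71. Of those 38 genes the difference was negative by at least 1 in 25, with a median of -1.54. The estimated change was largest in the hippocampal line for 41 of the 43 genes tested and for 36 of those 38, compared with 42.8% of all genes tested. In 36 of the 43 genes tested the 3 hippocampal astrocyte libraries lay above all other 15 libraries, as they did in 15.3% of all genes tested, and in 31 of the 38. They did so also in Zbp1, Oas1a, Ifi47 and, by a narrow margin near the bottom of the scale, Sp100, which were not tested. All comparisons with the hippocampal line share its libraries.

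**Figure D3:**
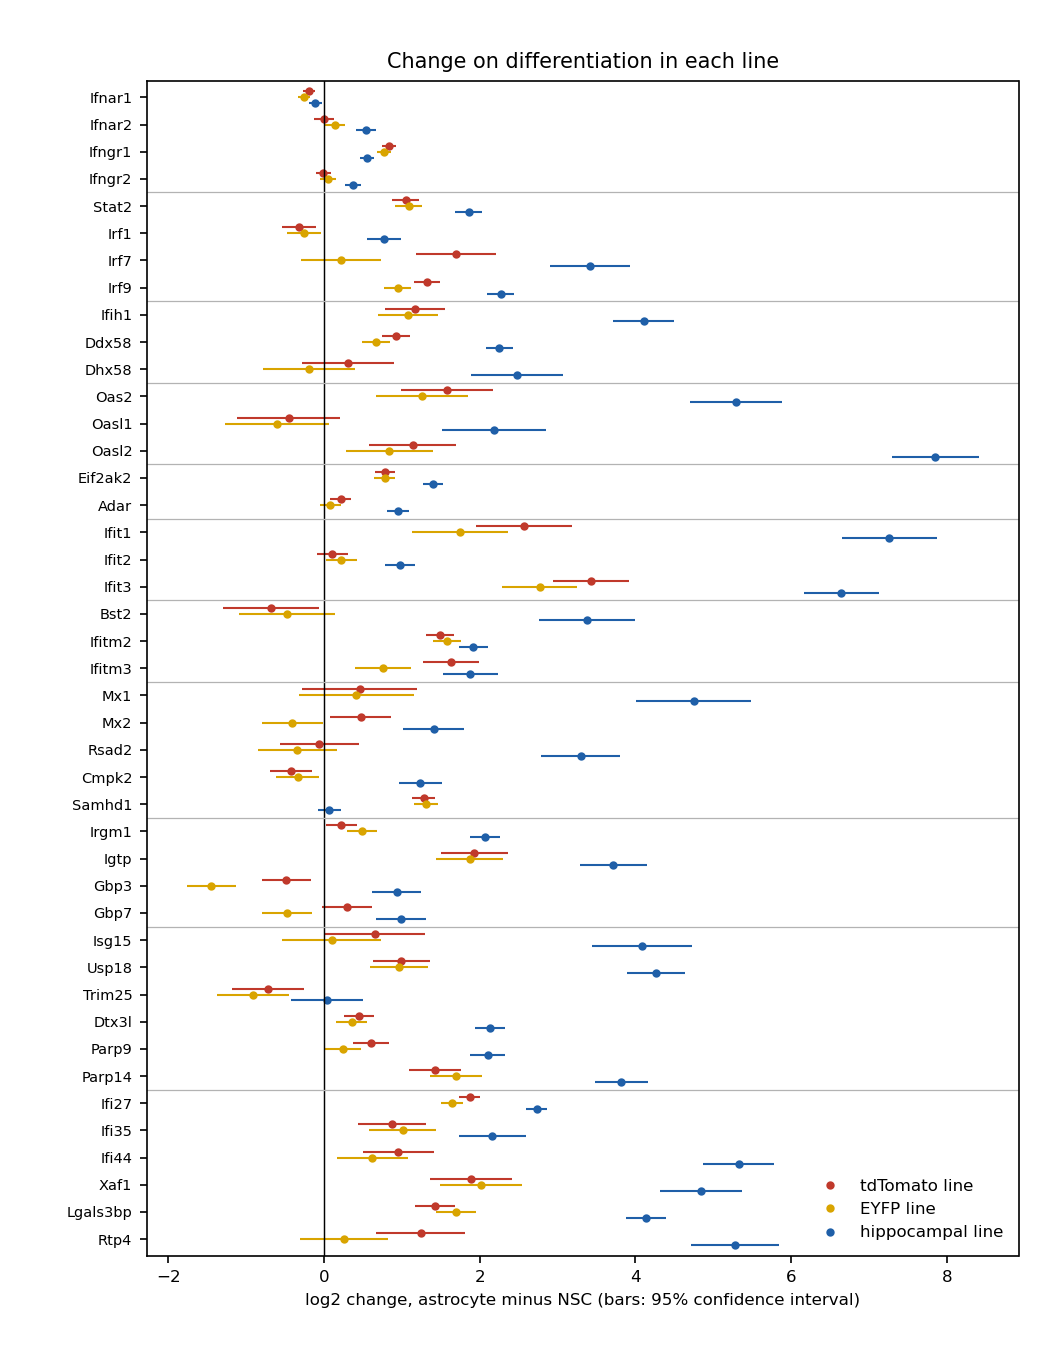
Log2 change from NSC to astrocyte (x axis) of the 43 genes tested, with a point for the estimate and a bar for its 95% confidence interval in each of the 3 lines. The hippocampal estimate is the largest for 41 genes and reaches 7.85 for Oasl2.

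The receptor genes moved by small amounts. Ifngr1, the ligand-binding chain of the gamma receptor, was between 9.30 and 9.41 in the 9 NSC libraries. In astrocytes it was at 10.24, 10.08 and 10.18 in the tdTomato line, at 10.22, 10.17 and 10.14 in the EYFP line and at 9.96, 9.96 and 9.93 in the hippocampal line. All astrocyte libraries lay above all NSC libraries, and the traced astrocytes lay above the hippocampal ones. The rise was 0.84, 0.77 and 0.56 in the tdTomato, EYFP and hippocampal lines (standard error 0.04 each), and traced and hippocampal changes differed by 0.25 (standard error 0.05, adjusted p = 0.00075). Ifnar1, a chain of the type I receptor, fell by 0.19, 0.26 and 0.11 in the same order, and the hippocampal call ended without hippocampal astrocyte replicate 3 (adjusted p = 0.059). Ifnar2 and Ifngr2 rose in the hippocampal line, from means of 8.90 and 9.10 to 9.44 and 9.48, and these calls held without any single library. In the traced lines Ifngr2 was not called. The change of Ifnar2 was 0.14 in the EYFP line, and its call ended without EYFP NSC replicate 1 or 2 or EYFP astrocyte replicate 1 or 2 (adjusted p up to 0.13). Traced and hippocampal changes differed by -0.47 for Ifnar2 and by -0.35 for Ifngr2. For Ifnar1 they differed by -0.12, a call lost in 15 of the 18 fits with 1 library left out (adjusted p up to 0.13).

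The transcription factors of the type I pathway rose in steps. Stat2, a part of the ISRE-binding complex, was between 8.64 and 8.91 in the 9 NSC libraries. It was at 9.85, 9.81 and 9.81 in tdTomato astrocytes, at 9.84, 9.91 and 9.87 in EYFP astrocytes and at 10.82, 10.61 and 10.49 in hippocampal astrocytes. Hippocampal astrocytes lay above traced astrocytes and these above all NSCs, while the NSCs of the lines overlapped. The rise was 1.05, 1.09 and 1.86 in the tdTomato, EYFP and hippocampal lines (standard error 0.08 each, adjusted p = 5.1e-13 in the hippocampal line). Irf9, the DNA-binding part of the same complex, was between 7.45 and 7.93 in NSCs. It reached 8.88, 8.71 and 8.91 in tdTomato, 8.53, 8.39 and 8.61 in EYFP and 10.21, 10.02 and 10.01 in hippocampal astrocytes. Its rise was 1.32 in the tdTomato line (adjusted p = 5.1e-11), 0.95 in the EYFP line (adjusted p = 6.1e-09) and 2.27 in the hippocampal line (standard error 0.08 each).

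Irf7, which drives type I interferon genes once it is itself induced, differed between the traced lines. It was between 3.19 and 4.00 in the 9 NSC libraries. It was at 4.94, 5.17 and 5.11 in tdTomato astrocytes, at 4.07, 3.98 and 3.43 in EYFP astrocytes and at 7.49, 6.89 and 6.63 in hippocampal astrocytes. The tdTomato astrocytes lay above all NSCs, and the EYFP astrocytes overlapped them. The change was 1.70 in the tdTomato line, 0.22 (not called) in the EYFP line and 3.42 in the hippocampal line (standard error 0.24 each), and the traced changes differed by 1.48 (standard error 0.34, adjusted p = 0.009). Irf1, a factor induced mainly through the GAS, fell from a mean of 8.60 to 8.28 in the tdTomato line (adjusted p = 0.0083) and rose from 7.92 to 8.69 in the hippocampal line (adjusted p = 2.0e-06). In the EYFP line its difference was -0.25, a call that ended without EYFP NSC replicate 1 or EYFP astrocyte replicate 1 or 2 (adjusted p up to 0.24). Traced NSCs held more Irf1 than hippocampal NSCs, by 0.64 (standard error 0.09, adjusted p = 1.9e-05), and the difference in astrocytes was -0.42.

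Ifih1 and Ddx58, sensors of foreign RNA, followed the order of Stat2. Ifih1 encodes MDA5, the sensor of long double-stranded RNA. It was between 4.06 and 4.94 in NSCs, at 5.57, 5.60 and 5.98 in tdTomato astrocytes, at 5.60, 5.56 and 5.61 in EYFP astrocytes and at 8.62, 7.99 and 8.28 in hippocampal astrocytes. All astrocyte libraries lay above all NSC libraries, and the hippocampal ones lay above the traced ones. The rise was 1.17, 1.08 and 4.11 in the tdTomato, EYFP and hippocampal lines (standard error 0.19 each). Ddx58, which encodes RIG-I, rose from means of 7.90, 8.09 and 7.94 to 8.82, 8.76 and 10.20 in the same order. Dhx58, a regulator of both sensors, was between 2.60 and 3.59 in the 15 libraries other than hippocampal astrocytes and at 6.38, 5.38 and 5.37 in those. It was called in the hippocampal line and not in the traced lines, and the changes differed by -2.42 (adjusted p = 1.7e-05). Zbp1, a sensor of Z-form nucleic acid, was not tested. It was at 1.94, 1.35 and 0.79 in hippocampal astrocytes and at -0.09 or less elsewhere.

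The Oas family makes the messenger that turns on RNase L, or encodes relatives of these enzymes. Oasl2, such a relative, had the largest rise of the 43 genes in the hippocampal line. It was between 2.66 and 3.20 in the 9 NSC libraries, at 4.18, 3.88 and 4.11 in tdTomato astrocytes, at 3.53, 4.14 and 3.84 in EYFP astrocytes and at 11.50, 10.37 and 10.24 in hippocampal astrocytes. Traced astrocytes lay just above all NSCs, and hippocampal astrocytes lay far above both. The rise was 7.85 in the hippocampal line (standard error 0.27, adjusted p = 1.4e-14), 1.14 in the tdTomato line and 0.84 in the EYFP line. Traced and hippocampal changes differed by -6.86 (standard error 0.32, adjusted p = 4.7e-11). Oas2 was at 7.21, 6.44 and 6.22 in hippocampal astrocytes, between 2.06 and 3.11 in traced astrocytes and at 1.47 or less in NSCs. Oasl1 was at 4.08, 4.13 and 3.56 in hippocampal astrocytes and between 1.15 and 2.68 in all other libraries. Both stepped up in hippocampal astrocytes, and Oas2 also in traced astrocytes. Oas1a, not tested, was at 6.39, 4.44 and 3.30 in hippocampal astrocytes and at 1.33 or less elsewhere. Of its 76-base stretches 47.3% are shared with Oas1g, so reads may have been split between them. Oas3, not tested, was at -1.60 or less in all libraries, near the bottom of the scale.

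Eif2ak2 encodes PKR, which stops translation on double-stranded RNA, and Adar edits such RNA. Eif2ak2 was between 9.49 and 9.62 in NSCs, between 10.26 and 10.41 in traced astrocytes and at 11.13, 10.93 and 10.85 in hippocampal astrocytes, with no overlap between these sets. Its rise was 0.79, 0.78 and 1.40 in the tdTomato, EYFP and hippocampal lines. Adar rose by 0.95 in the hippocampal line and by 0.21 in the tdTomato line, and its change of 0.08 in the EYFP line was not called. Of the Adar stretches 13% overlap Chrnb2 on the other strand.

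The Ifit family binds foreign RNA, and Ifit3 had the largest rise of the 43 genes in both traced lines. Ifit1 (ENSMUSG00000034459) lies on chromosome 19 from 34640871 to 34650009 in GENCODE M21 on GRCm38, and its upstream stretch is printed above. It was between 2.81 and 3.76 in the 9 NSC libraries. It was at 5.82, 6.17 and 5.86 in tdTomato astrocytes, at 4.92, 5.11 and 5.16 in EYFP astrocytes and at 11.15, 10.04 and 9.88 in hippocampal astrocytes. The 3 groups of astrocytes overlapped neither each other nor any NSC library. The rise was 7.26 in the hippocampal line (standard error 0.29, adjusted p = 1.4e-13), 2.57 in the tdTomato line and 1.75 in the EYFP line. Traced and hippocampal changes differed by -5.11 (standard error 0.36, adjusted p = 4.4e-09), and the difference between the traced changes, 0.82, was not called.

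Ifit3 (ENSMUSG00000074896) lies on chromosome 19 from 34583531 to 34588731, and was between 3.64 and 4.64 in NSCs. It was at 7.43, 7.43 and 7.36 in tdTomato, at 6.94, 6.93 and 7.12 in EYFP and at 11.30, 10.64 and 10.49 in hippocampal astrocytes. The groups of astrocytes again overlapped neither each other nor the NSCs. The rise was 3.43 in the tdTomato line (standard error 0.23, adjusted p = 2.0e-10), 2.77 in the EYFP line (adjusted p = 4.3e-09) and 6.65 in the hippocampal line (adjusted p = 1.9e-14). Of its stretches 40.7% are shared with Ifit3b, so the split of reads between these copies is uncertain. Ifit3b, from a list of further induced genes, rose by 4.51, 4.05 and 6.70 in the tdTomato, EYFP and hippocampal lines. Ifit2 was between 9.09 and 9.39 in NSCs, between 9.26 and 9.66 in traced astrocytes and at 10.39, 10.15 and 10.38 in hippocampal astrocytes. Its rise of 0.98 in the hippocampal line was called and its change of 0.11 in the tdTomato line was not. Its call in the EYFP line (0.22) ended without EYFP NSC replicate 2 or 3 or EYFP astrocyte replicate 1 or 3 (adjusted p up to 0.14).

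**Figure D4:**
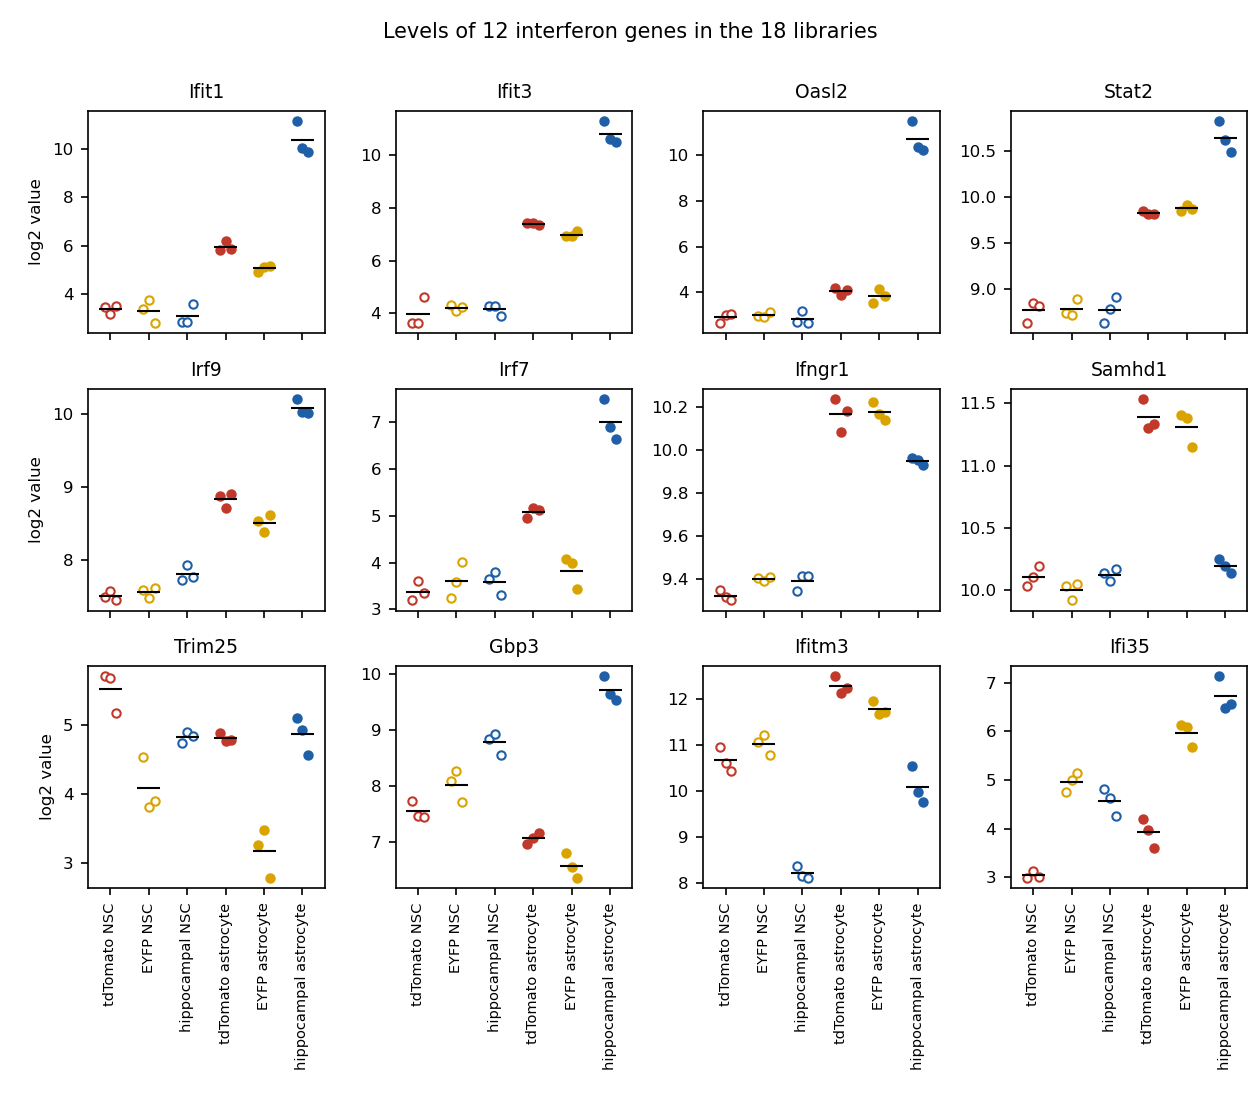
Log2 values (y axis, a scale for each panel) of 12 genes in the 18 libraries, with open points for NSCs and filled points for astrocytes, 1 point a library and a line at the mean of each group of 3. Ifit1, Ifit3, Oasl2, Stat2 and Irf9 are highest in hippocampal astrocytes, Samhd1 is highest in traced astrocytes, and Ifitm3 is lowest in hippocampal NSCs.

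Among the membrane proteins, Ifitm3 and Ifitm2 differed between the lines already as NSCs. Ifitm3 blocks entry of virus from endosomes. It was at 10.95, 10.62 and 10.43 in tdTomato NSCs, at 11.07, 11.22 and 10.80 in EYFP NSCs and at 8.37, 8.16 and 8.10 in hippocampal NSCs. In astrocytes it was at 12.51, 12.14 and 12.25 in the tdTomato line, at 11.96, 11.68 and 11.72 in the EYFP line and at 10.55, 9.98 and 9.75 in the hippocampal line. Every traced library exceeded every hippocampal library of the same fate. The difference was 2.64 in NSCs (standard error 0.15, adjusted p = 1.5e-10) and 1.95 in astrocytes (standard error 0.15, adjusted p = 2.9e-09). All 3 lines rose, with changes of 1.63 (tdTomato), 0.76 (EYFP) and 1.88 (hippocampal).

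Ifitm2, a relative of Ifitm3 on the same chromosome, was lower in traced than in hippocampal cells. It was between 8.82 and 8.97 in tdTomato, between 9.31 and 9.37 in EYFP and between 10.06 and 10.09 in hippocampal NSCs, without overlap. It rose by 1.49, 1.58 and 1.92 in the tdTomato, EYFP and hippocampal lines, and the traced minus hippocampal difference was -0.96 in NSCs and -1.34 in astrocytes. Of the Ifitm2 stretches 41.7% are shared with other loci. Bst2 (tetherin), which holds budding virus at the cell surface, was at 6.65, 5.95 and 5.90 in hippocampal astrocytes and between 1.85 and 3.37 in all other libraries. Its difference of -0.68 in the tdTomato line was called, and the call ended without tdTomato NSC replicate 1 or 3 or tdTomato astrocyte replicate 1 or 3 (adjusted p up to 0.13). All tdTomato libraries were at 3.29 or less, under the filter level. The call ended also with no filter, a pseudocount of 10 or median centring (adjusted p = 0.077, 0.10 and 0.070). Ifitm1, not tested, was between 2.02 and 2.69 in traced astrocytes, at 1.77, 2.10 and 2.61 in hippocampal astrocytes and at 1.68 or less in NSCs.

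Samhd1, which removes the nucleotides that reverse transcription needs, rose in both traced lines. It was between 9.92 and 10.19 in the 9 NSC libraries. It was at 11.54, 11.30 and 11.33 in tdTomato astrocytes, at 11.41, 11.38 and 11.15 in EYFP astrocytes and at 10.25, 10.19 and 10.14 in hippocampal astrocytes. Traced astrocytes lay above all other libraries, and hippocampal astrocytes overlapped the NSCs. The rise was 1.28 in the tdTomato line (standard error 0.07, adjusted p = 1.3e-11) and 1.31 in the EYFP line (adjusted p = 1.1e-11). The change in the hippocampal line, 0.069 (95% confidence interval from -0.08 to 0.22), was not called, and traced and hippocampal changes differed by 1.23 (standard error 0.09, adjusted p = 4.9e-09).

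The other antiviral effectors rose in the hippocampal line. Mx1, a GTPase that traps viral nucleocapsids, was at 7.69, 6.61 and 6.80 in hippocampal astrocytes, at 2.62, 2.14 and 2.09 in hippocampal NSCs and between 0.84 and 2.18 in traced libraries of both fates. The difference in the hippocampal line was 4.75, with no test given since Mx1 passed the filter only through those astrocytes, and changes of 0.46 and 0.41 in the tdTomato and EYFP lines were not called. Rsad2 encodes viperin, which makes a chain-ending nucleotide, and Cmpk2 encodes a nucleotide kinase. Rsad2 was at 7.48, 7.03 and 6.85 in hippocampal astrocytes and between 3.41 and 4.27 elsewhere. Cmpk2 rose from a mean of 7.17 to 8.41 in the hippocampal line and changed by -0.42 in the tdTomato and -0.34 in the EYFP line. The tdTomato call ended without tdTomato astrocyte replicate 2 (adjusted p = 0.054), and the EYFP call ended without EYFP NSC replicate 1 or 2 or EYFP astrocyte replicate 2 (adjusted p up to 0.15). GENCODE M21 classes Mx2, a relative of Mx1, as a polymorphic pseudogene, and whether working Mx proteins were made was not tested. Mx2 had NSC means of 3.71 for tdTomato, 4.64 for EYFP and 2.34 for hippocampal cells and astrocyte means of 4.19, 4.23 and 3.76. Its rise of 1.41 in the hippocampal line was called, and its call in the tdTomato line (0.47) ended without tdTomato NSC replicate 2 or tdTomato astrocyte replicate 2 (adjusted p up to 0.15).

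Among the interferon-inducible GTPases, which act on the vacuoles of intracellular microbes, Igtp rose in every line. It was between 5.24 and 6.14 in NSCs, between 7.48 and 7.69 in traced astrocytes and at 9.72, 9.36 and 9.22 in hippocampal astrocytes, with no overlap. The rise was 1.93 in the tdTomato line (standard error 0.20, adjusted p = 9.6e-08), 1.87 in the EYFP line (adjusted p = 1.6e-07) and 3.72 in the hippocampal line. Irgm1, a regulator of these GTPases, rose from a mean of 8.95 to 11.02 in the hippocampal line and by 0.49 in the EYFP line. Its call in the tdTomato line (0.22) ended without tdTomato NSC replicate 1, 2 or 3 or tdTomato astrocyte replicate 1, 2 or 3 (adjusted p up to 0.081). Ifi47, not tested, was at 2.89, 2.96 and 2.86 in hippocampal astrocytes and at 1.04 or less elsewhere.

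Gbp3 and Gbp7, guanylate-binding proteins encoded on chromosome 3, divided the lines. Gbp3 was at 7.73, 7.47 and 7.44 in tdTomato, at 8.08, 8.27 and 7.71 in EYFP and at 8.83, 8.93 and 8.55 in hippocampal NSCs. In astrocytes it was at 6.96, 7.07 and 7.15 for tdTomato, at 6.80, 6.55 and 6.35 for EYFP and at 9.95, 9.63 and 9.53 for hippocampal cells. Traced astrocytes lay below all NSCs and hippocampal astrocytes above them. Gbp3 fell by 0.49 in the tdTomato line (standard error 0.15, adjusted p = 0.0067) and by 1.45 in the EYFP line (adjusted p = 7.8e-08), and rose by 0.93 in the hippocampal line. Traced and hippocampal changes differed by -1.90, and the traced changes differed by 0.96 (standard error 0.21, adjusted p = 0.006). Gbp7, of whose stretches 11.2% are shared with Gm43802 or Gbp3, rose by 0.98 in the hippocampal line. It changed by 0.29 in the tdTomato line (not called) and by -0.47 in the EYFP line, a call that ended without EYFP NSC replicate 2 (adjusted p = 0.065).

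Isg15, a ubiquitin-like protein joined to other proteins, was at 6.82, 6.13 and 6.02 in hippocampal astrocytes and between 1.71 and 3.05 in every other library, and traced astrocytes overlapped the NSCs. The difference in the hippocampal line was 4.08, a direction fixed by the filter since Isg15 passed only through those astrocytes, and changes of 0.66 and 0.10 in the tdTomato and EYFP lines were not called. Usp18, which removes ISG15 and blocks the type I receptor, was at 8.63, 8.27 and 8.03 in hippocampal astrocytes, between 4.12 and 4.71 in traced astrocytes and between 3.09 and 4.37 in NSCs. Its rise was 4.27 in the hippocampal line (standard error 0.18, adjusted p = 1.9e-13), 1.00 in the tdTomato and 0.96 in the EYFP line. Parp9 and Parp14 belong to the ADP-ribosyltransferase family, and Dtx3l is the ubiquitin ligase partner of PARP9. Dtx3l, Parp9 and Parp14 rose by 2.13, 2.10 and 3.82 in the hippocampal line and by 0.45, 0.61 and 1.43 in the tdTomato line. In the EYFP line Dtx3l and Parp14 rose by 0.36 and 1.70, and Parp9 changed by 0.24, not called. Dtx3l and Parp9 overlap on opposite strands, and the strand setting of the counting is not given in the sources used here.

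Trim25, a ubiquitin ligase that acts on RIG-I, rose in none of the 3 lines. It was at 5.71, 5.68 and 5.18 in tdTomato, at 4.54, 3.81 and 3.89 in EYFP and at 4.74, 4.90 and 4.84 in hippocampal NSCs. In astrocytes it was at 4.88, 4.76 and 4.78 for tdTomato, at 3.25, 3.48 and 2.78 for EYFP and at 5.10, 4.92 and 4.57 for hippocampal cells. The tdTomato line lay above the EYFP line in both fates, by 1.44 in NSCs (adjusted p = 0.0001) and 1.63 in astrocytes (adjusted p = 4.4e-05). Trim25 fell by 0.71 in the tdTomato and by 0.91 in the EYFP line, and its hippocampal change of 0.038 was not called. The call of the difference between traced and hippocampal changes (-0.85) ended without hippocampal astrocyte replicate 1 (adjusted p = 0.052).

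The remaining induced genes that were tested rose in all 3 lines, except for Rtp4 in the EYFP line (0.26, not called). Ifi27, a small mitochondrial protein, was between 7.93 and 8.67 in NSCs, at 9.93, 9.93 and 9.92 in tdTomato, at 9.63, 9.67 and 9.64 in EYFP and at 11.51, 11.37 and 11.21 in hippocampal astrocytes. It rose by 1.87 in the tdTomato line (standard error 0.06, adjusted p = 2.0e-14), by 1.64 in the EYFP line (adjusted p = 1.3e-13) and by 2.73 in the hippocampal line. Lgals3bp, a secreted glycoprotein, was between 6.18 and 7.44 in NSCs, between 7.86 and 8.58 in traced astrocytes and at 11.90, 11.43 and 11.33 in hippocampal astrocytes. Both genes were highest in hippocampal astrocytes. The rise of Lgals3bp was 1.43, 1.70 and 4.13 in the tdTomato, EYFP and hippocampal lines, and that of Xaf1, which opposes an inhibitor of cell death, was 1.89, 2.02 and 4.84. Ifi44 was at 7.86, 7.15 and 6.92 in hippocampal astrocytes, between 3.07 and 3.70 in traced astrocytes and at 2.74 or less in NSCs. Its rise was 5.33 in the hippocampal line (standard error 0.22, adjusted p = 1.6e-13), and its call in the EYFP line (0.62) ended without EYFP astrocyte replicate 3 (adjusted p = 0.075). Rtp4, a chaperone of membrane receptors, was at 9.06, 8.24 and 7.99 in hippocampal astrocytes and between 3.66 and 5.02 in traced astrocytes, and it rose by 5.28 in the hippocampal line (standard error 0.27, adjusted p = 4.1e-12).

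Ifi35 was lowest in the tdTomato line. It was at 2.99, 3.14 and 3.01 in tdTomato, at 4.75, 5.00 and 5.14 in EYFP and at 4.81, 4.63 and 4.25 in hippocampal NSCs. In astrocytes it was at 4.19, 3.96 and 3.61 for tdTomato, at 6.14, 6.10 and 5.68 for EYFP and at 7.14, 6.49 and 6.57 for hippocampal cells. The tdTomato libraries lay below all others of the same fate, with a tdTomato minus EYFP difference of -1.91 in NSCs (adjusted p = 2.4e-06) and -2.05 in astrocytes (adjusted p = 1.8e-06). It rose by 0.88, 1.01 and 2.17 in the tdTomato, EYFP and hippocampal lines. Of its stretches 7.31% overlap Gm11626 on the other strand. Sp100, a protein of nuclear bodies, was between -1.57 and -1.13 in all libraries and was not tested.

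As NSCs, the lines differed in fewer of these genes. Of the 49 genes 5 were higher and 13 lower in traced than in hippocampal NSCs, where 17.0% and 14.9% of all genes tested were, and the median difference was -0.069. The largest were those of Ifitm3 (2.64), Mx2 (1.83), Mx1 (-1.33), Gbp3 (-0.99), Ifitm2 (-0.96) and Gbp7 (-0.91). Mx1 was at 2.62 or less in all NSC libraries, under the filter level, and was tested only through the hippocampal astrocytes. Its call ended with a pseudocount of 10 (adjusted p = 0.13). The call of Gbp7 ended with the traced libraries fitted as 1 group (adjusted p = 0.1). Its NSC means were 6.90 for tdTomato, 8.06 for EYFP and 8.39 for hippocampal cells. The count of 5 became 3 without tdTomato NSC replicate 2 or hippocampal NSC replicate 1, 2 or 3. With the traced libraries fitted as 1 group, 7 genes were lower. Ifit1, Ifit3 and Oasl2, far apart in astrocytes, were not called in NSCs. Their traced minus hippocampal differences in NSCs were 0.26 (95% confidence interval from -0.27 to 0.79) for Ifit1, -0.062 (95% confidence interval from -0.48 to 0.36) for Ifit3 and 0.10 (95% confidence interval from -0.38 to 0.59) for Oasl2.

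As astrocytes, the mean of the traced lines differed from the hippocampal line by limma in all 43 genes tested. For Trim25, tdTomato astrocytes (4.76 to 4.88) lay within the hippocampal range (4.57 to 5.10) and only EYFP astrocytes lay below it. Its call ended with the traced libraries fitted as 1 group (adjusted p = 0.15), as did that of Mx2. Traced astrocytes were lower in 39 (79.6% of 49) and higher in 4, where 31.9% and 27.9% of all genes tested were, and 30 were lower by at least 1, as 6.69% of all genes tested were. Among the 38 genes that did not need the hippocampal astrocytes to be tested 34 were lower, 25 of them by at least 1, and 4 higher. The median difference was -1.95, and -1.81 in those 38. The largest were those of Oasl2 (-6.76), Mx1 (-5.64), Ifit1 (-4.85), Rtp4 (-4.15), Oas2 (-4.10), Ifi44 (-3.97) and Usp18 (-3.94), of which Mx1 and Oas2 had to differ to be tested. The 4 higher genes were Ifitm3, Samhd1, Ifngr1 and Mx2, and the call for Mx2 (0.45) ended without tdTomato astrocyte replicate 2 or hippocampal astrocyte replicate 3 (adjusted p up to 0.14).

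**Figure D5:**
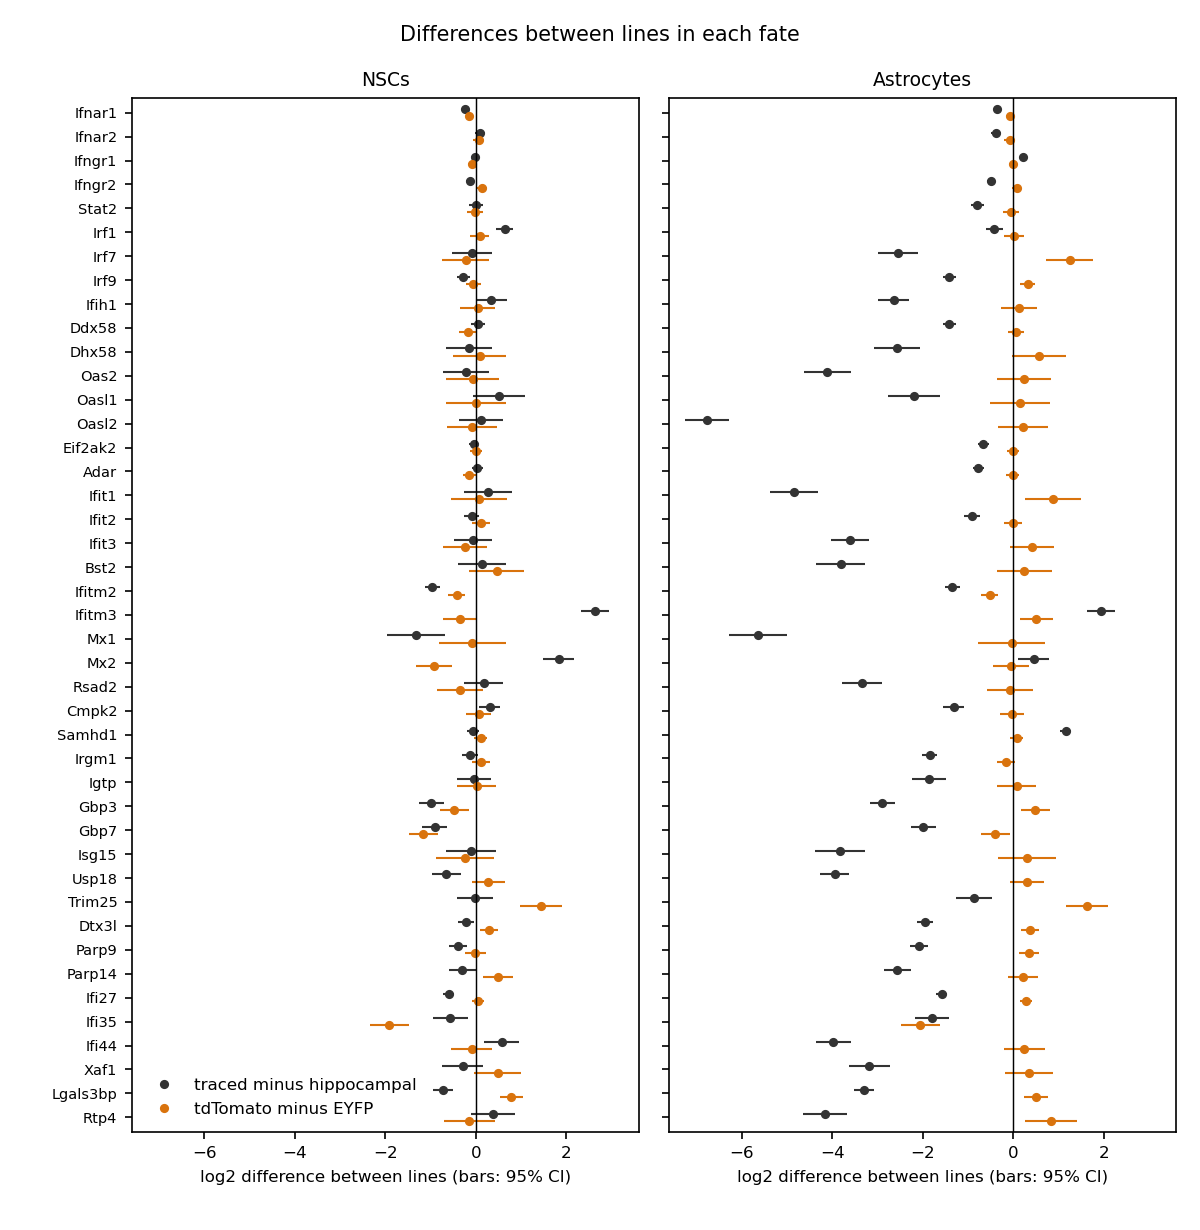
Log2 difference between lines (x axis) of the 43 genes tested, in NSCs and in astrocytes, with a point for the estimate and a bar for its 95% confidence interval, for traced minus hippocampal and for tdTomato minus EYFP. The traced minus hippocampal differences are negative for 39 genes in astrocytes, down to -6.76 for Oasl2.

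The traced lines differed from each other in fewer genes. In NSCs 5 genes were higher and 6 lower in the tdTomato than in the EYFP line, where 16.4% and 14.9% of all genes tested were. The 5 were Lgals3bp, Trim25, Dtx3l, Parp14 and Ifngr2, and the 6 were Ifi35, Gbp7, Mx2, Gbp3, Ifitm2 and Ifnar1. The count of 5 became 2 without tdTomato NSC replicate 1 or EYFP NSC replicate 3, and 3 without tdTomato NSC replicate 3 or EYFP NSC replicate 1 or 2. In astrocytes 9 were higher and 2 lower, where 7.06% and 7.31% were. The 9 were Trim25, Irf7, Rtp4, Lgals3bp, Gbp3, Dtx3l, Parp9, Irf9 and Ifi27, and the 2 were Ifi35 and Ifitm2. The count of 9 became 5 without tdTomato astrocyte replicate 2 or 3 or EYFP astrocyte replicate 2 or 3. The tdTomato change exceeded the EYFP change in 6 genes, Irf7, Gbp3, Mx2, Ifitm3, Gbp7 and Irf9, where 6.36% of all genes tested did. That count became 3 without tdTomato NSC replicate 2 or 3, EYFP NSC replicate 2 or EYFP astrocyte replicate 3. The tdTomato change was the smaller by limma in 0 genes, where 6.98% of all genes tested were, and in 0 at an unadjusted p under 0.05.

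Within the hippocampal astrocytes 1 library was highest for most of these genes. Replicate 1 was the highest of the 3 libraries for 38 of the 43 genes tested, and for 41.7% of all genes tested, and replicate 3 was the lowest for 33 of the 43 and for 35.1% of all genes tested. The median excess of replicate 1 over the mean of the other libraries was 0.43 for these genes and 0.021 for all genes tested. In the other 5 groups each replicate was the highest for between 10 and 19 of the 43 genes. Without replicate 1, Oas2, Oasl1, Mx1 and Isg15 failed the filter, 36 genes rose in the hippocampal line and 35 were lower in traced than in hippocampal astrocytes. The rise without it was 7.46 for Oasl2, 6.87 for Ifit1 and 6.40 for Ifit3, the lowest values for these genes when each library was left out in turn.

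Other genes of the pathway were counted from further lists. Of 23 further induced genes, 18 were tested. In the hippocampal line 17 rose and 1 fell (median 3.79), in the tdTomato line 13 rose and 1 fell (median 1.21), and in the EYFP line 12 rose and 2 fell (median 0.69), where between 38.2% and 39.9% of all genes tested were higher and between 37.0% and 38.5% lower. Trim30a, Ifi27l2a, Oas1b and Oas1c passed the filter only through the hippocampal astrocytes, and of the other 14 genes 13, 12 and 11 rose in the hippocampal, tdTomato and EYFP lines. Of those 14 genes 1 fell in each line, and their medians were 3.79, 1.75 and 1.23 in the same order. Iigp1, a GTPase of the same family as Igtp, rose by 4.11, 3.31 and 6.67 in the tdTomato, EYFP and hippocampal lines. Of 17 kinases, adaptors and factors 16 were tested, and in the tdTomato, EYFP and hippocampal lines 8, 9 and 11 rose and 2, 2 and 1 fell. Ikbke, a kinase that activates IRFs, rose by 2.03, 2.58 and 3.02, and Tmem173 (STING), the adaptor of DNA sensing, fell by 2.34, 1.63 and 1.66. Of 6 inhibitors 3, 3 and 4 rose and 1 fell in each line. In lists this small nothing is read from such counts beside the shares of all genes tested. Socs1, a feedback inhibitor of the receptor kinases, rose by 2.46 in the hippocampal and 0.78 in the EYFP line, and its change of 0.38 in the tdTomato line was not called. Of the interferon genes themselves Ifnk was at -2.06 or less and Ifnz at 1.60 or less in every library, and both were too low to be tested. The other listed interferon genes, Ifnb1 and Ifng among them, were not analysed here.

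Markers of other cell types were mostly low. Of 9 microglia and macrophage markers listed, Cx3cr1, Tyrobp and C1qa were not analysed here, and of the other 6, 0 passed the filter. Ptprc, Aif1, Itgam and Adgre1 were at -1.14 or less in every library, and P2ry12 was between 3.24 and 3.57 in hippocampal astrocytes and at 2.70 or less elsewhere. The log2 of the summed values of that list was between 3.66 and 3.90 in hippocampal astrocytes, between 2.77 and 3.17 in traced astrocytes and between 2.34 and 2.80 in NSCs. Of 7 dendritic cell markers listed, Clec9a and Itgax were not analysed here, 4 of the other 5 passed, and Flt3 was at 0.43 or less. Their summed level was between 8.75 and 8.85 in hippocampal astrocytes, between 8.73 and 8.91 in traced astrocytes and between 8.28 and 8.49 in NSCs. Xcr1 was between 4.35 and 4.70 in hippocampal astrocytes, between 3.04 and 3.98 in traced astrocytes and at 2.00 or less in NSCs, and Batf3 was between 4.24 and 5.21, between 3.31 and 4.02 and at 3.41 or less in the same order. Both were highest in hippocampal astrocytes, H2-Ab1 overlapped between all 3 sets, and Zbtb46 was higher in traced than in hippocampal astrocytes, between 8.54 and 8.75 compared with between 8.45 and 8.53. Of 7 endothelial and pericyte markers listed, Cldn5 was not analysed here and 3 of the other 6 passed, with Pdgfrb at 0.01 or less and Cdh5 at -1.99 or less. Their summed level was between 8.94 and 9.41 in hippocampal astrocytes, between 7.19 and 7.85 in traced astrocytes and between 4.53 and 5.72 in NSCs, and Vtn was at 8.79, 8.07 and 8.99 in hippocampal and at 4.02 or less in traced astrocytes. Flt1 went the other way, between 2.95 and 3.71 in hippocampal and between 4.94 and 5.48 in traced astrocytes. Of 4 oligodendrocyte markers 2 passed, with Mog at -1.04 or less and Mag at -1.57 or less. Their summed level was at most 8.25 in hippocampal astrocytes, between 9.59 and 10.34 in traced astrocytes and between 6.46 and 6.92 in NSCs. The part of these markers in the changes of the interferon genes was not tested.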

How the data were processed

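RNA was sequenced from 18 libraries in 6 groups of 3. Per the labels, reads were processed with Trimmomatic 0.36, STAR 2.5.2 and RSEM 1.3.0, and with DESeq2 1.18.1 in R 3.4.3, and the study's methods name Ensembl release 89. The authors deposited log2 values per gene, adjusted for library, with 29.4% of values negative, and the transform is not named. Groups came from the labels. limma 3.58.1 (R 4.3.3) fitted all 6 groups to the genes at 10 or more on the linear scale in at least 3 libraries, with a variance trend and Benjamini-Hochberg adjustment over all genes tested (two-sided, threshold 0.05). Traced stands for the mean of the tdTomato and EYFP lines. The fit was tested on simulated data. Members and lists were chosen with earlier results of these data known. Full statistics were given for at most 8 rises and 8 falls per comparison, among called genes with no overlap and a mean of at least 100 on the linear scale. Other members with values, such as Irf7, Trim25, Ifi35 and Mx2, were chosen after their values were seen. Shared 76-base stretches came from GENCODE M21 on GRCm38. RefSeq windows were used for 39 members, and Dhx58, Zbp1, Oas2, Mx1, Mx2, Usp18, Parp9, Parp14, Ifi27 and Rtp4 had none in the table used. Alternatives were other filters, pseudocounts of 1 and 10, scalings, models, a replicate block and each library left out. 1 gene of the pathway lists is not reported here.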

Additional observations from a re-analysis of the deposited data

Results flagged for a closer look

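The change from NSC to astrocyte differed between traced and hippocampal lines by the test of the difference itself (limma, traced change minus hippocampal change), positive in 2 genes and negative in 41. Of the 38 genes that did not need the hippocampal astrocytes to be tested, 36 were negative. The positive differences were 1.23 for Samhd1 and 0.25 for Ifngr1. The 8 most negative, among genes with a mean of at least 100 on the linear scale in the higher group, were Oasl2 (-6.86), Ifit1 (-5.11), Ifi44 (-4.54), Rtp4 (-4.53), Mx1 (-4.32), Ifit3 (-3.55), Rsad2 (-3.50) and Usp18 (-3.29). Of these 8, Mx1 passed the filter only through the hippocampal astrocytes and so had to differ.

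By the same kind of test the tdTomato change exceeded the EYFP change in 6 genes, a count that became 3 without tdTomato NSC replicate 2 or 3, EYFP NSC replicate 2 or EYFP astrocyte replicate 3. Those with a mean of at least 100 on the linear scale were Gbp3 (0.96), Ifitm3 (0.87), Gbp7 (0.77) and Irf9 (0.38). Groups of 3 libraries are too small for a test of single outlying values, and the ranks of the libraries within groups are described in the results.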

How the results depend on the processing

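No called direction reversed, while some changes that were not called, such as those of Ifit2 and Rsad2 in the tdTomato line, took either sign as libraries were left out. Without a filter on low values, traced minus hippocampal NSCs gave 3 higher genes in place of 5, and with the filter at 100 on the linear scale tdTomato minus EYFP astrocytes gave 1 lower gene in place of 2. Quantile normalization, and a fit to the libraries compared alone, each gave 3 in place of 5 higher genes in tdTomato minus EYFP NSCs, and the latter gave 1 in place of 0 genes with a smaller tdTomato than EYFP change. With the traced libraries as 1 group, 7 in place of 13 genes were lower in traced NSCs. Leaving out each library in turn gave 2 to 5 higher genes in tdTomato minus EYFP NSCs, 5 to 11 in tdTomato minus EYFP astrocytes, 3 to 5 in traced minus hippocampal NSCs and 3 to 7 for the tdTomato minus EYFP change, and 0 to 1 genes that fell in the hippocampal line. The other counts stayed within 1.5 times in every alternative run. For single genes, 3597 of the other refits left a gene called or not called as before, 61 lost a call and 30 gained one, and with a library left out these were 6679, 147 and 32. Median centring moved the median change of all genes to 0.10 in the tdTomato line. With a replicate block the counts of risen genes stayed at 28, 25 and 40 in the tdTomato, EYFP and hippocampal lines, with the same genes, and tdTomato minus EYFP gave 7 lower genes in NSCs and 10 higher in astrocytes. Whether the numbers pair the libraries is unclear: the study took replicates from successive passages, but the labels do not tie a number to a passage. Deviations of same-numbered libraries had a mean r of 0.106 over 18 pairs of the same fate (0.0117 to 0.312, 9 over 0.1), -0.00544 over 27 pairs of different fates and -0.0532 over 36 differently numbered pairs of the same fate, and in 31 of 36 comparisons a library was closest to its own number. A replicate block within each fate, chosen after seeing the data, kept all calls between lines and added Adar and Ifitm3 in tdTomato minus EYFP NSCs (8 lower genes) and Ifitm3 in astrocytes (10 higher). The causes of these shifts were not tested. Depth is unknown, so no counting error could be given, and the shrunken scale limits what can be said of weak genes.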
